A study of Mus musculus with 5 samples.

Results

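The genes described here drive a cell into and through mitosis: the kinases Cdk1, Aurka, Aurkb, Bub1, Bub1b and Plk1, the cyclins Ccnb1 and Ccna2, and the spindle and checkpoint proteins Tpx2 and Cdc20. The 10 symbols were looked up in the annotation of the array platform, and a gene was kept when its feature had values on at least 4 of the 5 arrays. Of the 10 genes, 7 met that rule: Cdk1, Tpx2, Bub1b, Aurkb, Ccna2 and Plk1 on 5 arrays and Aurka on 4, each with 1 feature. Bub1 and Cdc20 had values on 2 arrays each, and no feature was matched to Ccnb1, which is not analysed here. These 7 stand among 10081 genes and unnamed features tested in the series.

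Each of the 5 arrays compared amplified lung RNA of a single 129svJ mouse given bleomycin, a DNA-cleaving antitumour drug used to injure the lung, with amplified lung RNA pooled from control 129svJ mice. All mice are of 1 inbred strain and no other genotype or agent is named. The sources used here state no dose, route, time after treatment, age, sex or pool size. The ratios carry no expression level, so the tissue could not be checked by the level of lung markers. Of the marker lists used, 10 of 12 alveolar and 7 of 10 endothelial genes had values.

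All values below are log2 ratios of the 2 channels after centring each array on its median. No source names the log base or says which channel was divided by which. The labels put the bleomycin mouse in the first channel and the pool in the second, but give no dyes, so results are given as the side of 0 and its size. The arrays share 1 orientation: pairs of arrays correlated across genes with Pearson's r from 0.73 to 0.86. The folds given assume log2 and would be larger for natural logarithms: the mean of Cdk1 corresponds to 3.87-fold in the first case and to 7.04-fold in the second. In whole lung, a different number of cells of a type and a different amount of RNA per cell cannot be told apart.

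Entry into mitosis is set by Cdk1, the catalytic kinase, once it is bound by cyclin A or cyclin B. Aurora A, brought to spindle microtubules by Tpx2, helps to activate Plk1 and to build the spindle, while Aurora B corrects faulty attachments of chromosomes as the kinase of the chromosomal passenger complex. Bub1 and BubR1 (Bub1b) hold back Cdc20, the activator of the anaphase-promoting complex, until all chromosomes are attached, and this complex then has cyclins destroyed. In adult lung few cells divide at rest, and these genes are widely used as marks of cycling cells. Their promoters are known for CCAAT boxes, bound by NF-Y, and for the cell cycle homology region, an element through which they are kept silent outside the late cell cycle.

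Promoter sequences were taken from RefSeq (GRCm38.p6) for the 4 of the 7 measured genes that matched the promoter table, and they are shown for the short motifs they hold. Of all 10 genes 7 matched. The 120 bases before the annotated start are given 5′ to 3′ on the strand of the gene. Capitals mark CCAAT (or ATTGG, its other strand) and TTTGAA (or TTCAAA, its other strand), and no marked sites overlap.
Cdk1 (chr10:69352913-69353032, minus strand): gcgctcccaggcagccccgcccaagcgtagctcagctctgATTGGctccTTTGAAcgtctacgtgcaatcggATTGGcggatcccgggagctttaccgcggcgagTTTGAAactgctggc
Aurka (chr2:172370571-172370690, minus strand): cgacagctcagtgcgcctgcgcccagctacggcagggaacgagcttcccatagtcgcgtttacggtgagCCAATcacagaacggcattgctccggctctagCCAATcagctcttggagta
Bub1b (chr2:118598091-118598210, plus strand): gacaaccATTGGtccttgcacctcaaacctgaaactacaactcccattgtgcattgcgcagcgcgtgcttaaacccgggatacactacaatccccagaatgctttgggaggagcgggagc
Plk1 (chr7:122159315-122159434, plus strand): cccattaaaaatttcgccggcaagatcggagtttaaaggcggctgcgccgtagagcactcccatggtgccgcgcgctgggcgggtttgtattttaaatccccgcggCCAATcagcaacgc

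Cdk1 held TTTGAA 71 and 15 bases before the start. In the other 3 genes the motif lay just after the annotated start, at base 33 in Aurka, 41 in Bub1b and 31 in Plk1. Within the table's window of 250 bases before to 50 bases after the start, CCAAT was found in all 7 matched genes, and TTTGAA in 5 of them, Cdc20 being the fifth. Of 32851 promoter windows of the same length in the table, 37.4% held CCAAT, 17.9% held TTTGAA and 6.95% held both. A match is a description of the letters and not evidence of binding.

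Of the 7 genes, 6 lay below 0 and 1, Plk1, lay above 0, and each passed the threshold of an adjusted p under 0.05 (limma against 0, Benjamini-Hochberg over all 10081). The background was high, since 49.6% of everything tested passed, 23.9% below 0 and 25.8% above 0, so passing alone sets none of these genes apart. The sizes lay further out: Cdk1, Tpx2 and Bub1b were past 2-fold below 0, as were 2.35% of all tested, and 0 of the 7 were past 2-fold above 0, as were 3.24% of all tested. The median of the 7 means was −0.98, against −0.0066 over all tested. The 7 genes were chosen with earlier results of these data known, so their sizes beside all tested are a description only. All measured arrays lay below 0 for 6 of the 7 genes and for 28% of all tested, and above 0 for Plk1 and for 29.3% of all tested.

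The pool was the only control sample, and how control mice vary does not enter this test. When the pool was given the spread of a single mouse, Cdk1, Tpx2 and Bub1b passed below 0 (adjusted p = 0.011, 0.0225 and 0.0389), as did 2.11% of all tested. Aurkb, Ccna2, Aurka and Plk1 did not pass in that setting (adjusted p = 0.196, 0.274, 0.289 and 0.398), in which 2.98% of all tested passed above 0. Tested against a 1.2-fold minimum, 5 of the 7 genes passed below 0 and 0 above 0, against 8.04% and 10.3% of all tested.

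Cdk1 stood at −1.67, −1.98, −2.10, −2.27 and −1.74 in mice 1 to 5. All arrays were far from 0, and the lowest (mouse 4) and highest (mouse 1) differed by less than the distance of any array from 0. The mean was −1.95 ± 0.25 (SD, n = 5; SE 0.094; adjusted p = 2.54e-05), rank 36 from the lowest of 10081. It was the lowest of the 6 genes valued on 5 arrays in every mouse.

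Ccna2, cyclin A2, a partner of Cdk1 and of Cdk2 from S phase to early mitosis, stood at −1.35, −0.72, −0.79, −0.48 and −0.33 in mice 1 to 5. Mouse 1 was the farthest from 0 and mouse 5 the nearest. The mean was −0.73 ± 0.39 (SD, n = 5; adjusted p = 0.00469), a 1.66-fold difference, and it was −0.58 without mouse 1.

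Aurkb, the kinase of the chromosomal passenger complex, stood at −1.28, −0.28, −1.15, −1.34 and −0.84 in mice 1 to 5. Mouse 2 lay near 0, while the other mice lay between −1.34 and −0.84. The mean was −0.98 ± 0.44 (SD, n = 5; adjusted p = 0.00211), the widest spread of the 7 genes, and it was −1.15 without mouse 2.

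Its relative Aurka, the spindle pole kinase, had values on 4 arrays, at −0.42, −0.79, −0.92 and −0.24 in mice 1 to 4. Mice 2 and 3 were farther from 0 than mice 1 and 4. The mean was −0.59 ± 0.32 (SD, n = 4; adjusted p = 0.00967), and the fit has no value for mouse 5. Its call was lost with the 1.2-fold minimum (adjusted p = 0.0884) and with a plain one-sample test (adjusted p = 0.0722).

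Tpx2, which activates Aurora A at spindle microtubules, stood at −1.43, −0.98, −1.41, −1.25 and −1.05 in mice 1 to 5. The arrays lay close together, with mouse 2 nearest to 0. The mean was −1.22 ± 0.20 (SD, n = 5; adjusted p = 6.5e-05), a 2.34-fold difference and rank 151 from the lowest.

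Bub1b, the checkpoint protein BubR1, stood at −1.19, −0.96, −1.29, −1.06 and −0.73 in mice 1 to 5. Mouse 3 was the lowest and mouse 5 the highest. The mean was −1.04 ± 0.21 (SD, n = 5; adjusted p = 0.000136), a 2.06-fold difference.

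Plk1, polo-like kinase 1, which acts from mitotic entry to cytokinesis, stood at 0.11, 0.27, 0.46, 0.58 and 0.19 in mice 1 to 5. Every mouse was above 0, and mouse 4 was the highest. The mean was 0.32 ± 0.20 (SD, n = 5; adjusted p = 0.0139), a 1.25-fold difference. This call was lost with a plain one-sample test (adjusted p = 0.0539) and with the 1.2-fold minimum (adjusted p = 0.689). The mean was 0.34 without further centring and 0.30 with centring on the mean, shifts too small to change its side of 0.

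Where they had values, the genes outside the rule lay below 0, Bub1 only slightly. The median absolute mean over all tested was 0.21. Cdc20, the activator of the anaphase-promoting complex, stood at −0.52 in mouse 1 and −0.54 in mouse 4, and Bub1 at −0.044 in mouse 1 and −0.093 in mouse 2. With 2 arrays each they are given without a test.

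**Figure D1:**
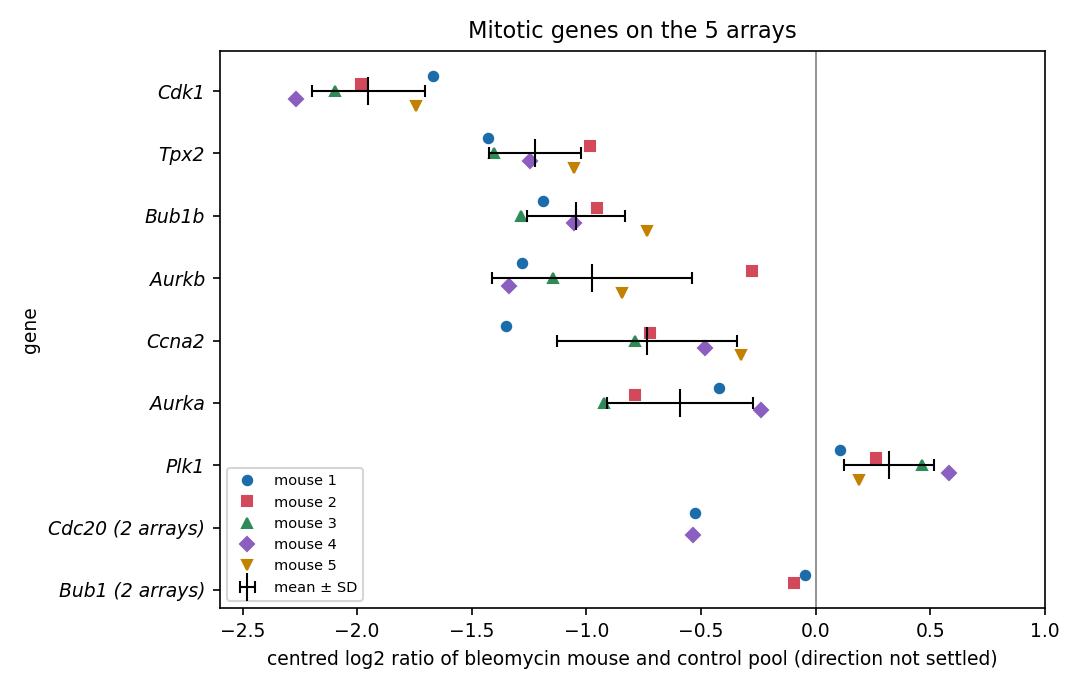
Centred log2 ratios (horizontal axis) of the mitotic genes (rows), with 1 symbol per mouse and the mean ± SD over the arrays for genes valued on 4 or 5 arrays; Cdc20 and Bub1 have 2 arrays each. Cdk1 lies between −2.27 and −1.67, the other 5 genes below 0 lie between −1.43 and −0.24, and Plk1 lies between 0.11 and 0.58.

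The order of the means was Cdk1, Tpx2, Bub1b, Aurkb, Ccna2, Aurka and Plk1. Cdk1 was below Tpx2 in 5 of 5 mice, by 0.73 ± 0.32 (SD of the difference within arrays). Tpx2 was below Bub1b in 5 of 5 mice, by 0.18 ± 0.11, with the smallest difference at 0.027. Neighbours in the middle did not differ beyond their spread: Bub1b and Aurkb differed by 0.068 ± 0.37, Aurkb and Ccna2 by 0.24 ± 0.51, and Ccna2 and Aurka by 0.24 ± 0.49 on 4 arrays. Plk1 was above its nearest neighbour Aurka on 4 of 4 arrays, by 0.95 ± 0.36, and above Cdk1 in 5 of 5 mice, by 2.27 ± 0.44. These differences are described by their spread and were not tested.

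The mice did not keep 1 order across the genes. Over all features, deposited ratios spread most in mouse 1 (SD 0.59) and least in mouse 2 (SD 0.49), and the part of this in the order of the mice was not tested. Over the 6 genes valued on all arrays, the mean ratio was −1.14, −0.78, −1.04, −0.97 and −0.75 in mice 1 to 5. Tpx2 and Aurkb were nearest to 0 in mouse 2, whereas Bub1b and Ccna2 were nearest to 0 in mouse 5 and Cdk1 in mouse 1. Plk1 was nearest to 0 in mouse 1 as well, and farthest from 0 in mouse 4, as Cdk1 was, on the other side of 0.

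Marker counts are given beside the 23.9% of all tested that passed below 0 and the 25.8% above 0. Macrophage markers lay on the same side: of 8 measured, 7 passed below 0 and 1, Mrc1, above 0. Their median was −1.32, −0.59, −0.62, −0.88 and −0.78 in mice 1 to 5, also farthest from 0 in mouse 1. C1qc had no value in mouse 2 and Mrc1 none in mouse 1, so these medians do not cover the same genes. Lymphocyte markers (2 of 11 passed below 0 and 1 above 0) and erythroid markers (1 of 6 passed below and 2 above) had medians between −0.094 and 0.16 on every array. Fibroblast markers passed in 3 of 7 on each side. Endothelial markers passed above 0 in 7 of 7, alveolar markers in 5 of 10 with 0 below, and airway markers in 4 of 6 with 1 below. Skeletal muscle markers passed below 0 in 7 of 9, with array medians from −4.42 in mouse 1 to −0.23 in mouse 3. The part of these cells in the values of the mitotic genes was not tested.

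Other genes of cell division were read from lists drawn up by role. Over these lists, without the 10 genes above and without DNA replication, 134 genes were measured, of which 46 passed below 0 (34.3%), 32 above 0 (23.9%) and 56 did not pass, with a median of −0.04. Over all tested, 23.9% passed below 0 and 25.8% above 0, and the counts of each list below are to be read beside these shares. Past 2-fold, 9 of the 134 lay below 0 and 2 above 0, against 2.35% and 3.24% of all tested. With the pool given the spread of 1 mouse, 8 genes passed: Spc25, Melk, Kif22, Ccng1, Cdkn1a, Gadd45g and Fzr1 below 0, and Ccni above 0, in a setting where 2.11% of all tested passed below 0 and 2.98% above 0.

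Among 11 partners and regulators of Cdk1, 5 passed below 0 and 4 above 0. Cks1b, a small subunit that binds cyclin-dependent kinases, stood at −2.03, −0.75, −1.79, −1.65 and −1.55 in mice 1 to 5, with mouse 2 nearest to 0 as for Aurkb (mean −1.55 ± 0.48; SD, n = 5; adjusted p = 0.000444). Arpp19, an inhibitor of the phosphatase that opposes Cdk1, averaged −1.29 ± 0.34, and its close relative Ensa lay on the other side at 0.23 ± 0.089. The Gadd45 stress genes divided in the same way, with Gadd45g at −1.12 ± 0.18 and Gadd45a and Gadd45b at 0.503 ± 0.26 and 0.49 ± 0.22. Cyclin B2, Ccnb2, the relative of the unmatched Ccnb1, stood at −0.86, −0.67, −0.98, −1.196 and −0.46 in mice 1 to 5, below 0 in every mouse (mean −0.83 ± 0.28; adjusted p = 0.000839). It was chosen after its values were seen.

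Of 10 spindle checkpoint and passenger genes, 5 passed below 0 and 1 above 0. Mad2l1, which with BubR1 binds Cdc20, averaged −0.71 ± 0.18, Trip13, an ATPase that remodels Mad2, −0.72 ± 0.44, and Incenp, the scaffold of Aurora B, −0.61 ± 0.35. The checkpoint kinase Ttk lay above 0 in every mouse, at 0.35, 0.44, 0.25, 0.39 and 0.67 in mice 1 to 5 (mean 0.42 ± 0.16; adjusted p = 0.00245). Plk1 was therefore not the only mitotic kinase on that side.

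Of 12 other kinases of mitosis and their relatives, 4 passed below 0 and 3 above 0 (33.3% and 25%, against 23.9% and 25.8% of all tested). Nek2, among the 4 below 0, is also counted among the spindle checkpoint and passenger genes above. Melk, a kinase of proliferating cells, stood at −1.19, −1.49, −1.70, −1.73 and −1.49 in mice 1 to 5 (mean −1.52 ± 0.21; adjusted p = 3.38e-05). Like Cdk1 it was farthest from 0 in mouse 4 and nearest in mouse 1. Nek6 averaged −0.64 ± 0.19 and Bora, a cofactor by which Aurora A activates Plk1, −0.48 ± 0.11. Vrk1 and Nek7 averaged 0.75 ± 0.26 and 0.68 ± 0.39. Tlk2 averaged 0.51, but its 2 features disagreed, at −0.17 and 1.18. The relatives Aurkc (0.02 ± 0.094), Plk2 (0.17 ± 0.19) and Plk4 (0.14 ± 0.23, n = 4) did not pass, at adjusted p = 0.762, 0.104 and 0.281. These 3 relatives were chosen after their values were seen.

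Of 12 genes of the anaphase-promoting complex and its targets, 4 passed below 0 and 2 above 0. Fzr1, the activator that replaces Cdc20 late in mitosis, averaged −0.84 ± 0.18, and the subunits Anapc15 and Anapc10 −0.895 ± 0.24 and −0.73 ± 0.26. The subunit Anapc5 averaged 0.77 ± 0.25 on the other side.

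Of 20 spindle and motor genes, 9 passed below 0 and 3 above 0. Kif22, a chromosome-arm motor, stood at −1.32, −1.31, −1.92, −1.88 and −1.74 in mice 1 to 5 (mean −1.63 ± 0.30; adjusted p = 6.59e-05). Kpna2, an importin, averaged −0.82 ± 0.27 and Ran, the small GTPase that frees Tpx2 from importin, −0.52 ± 0.104 on 4 arrays. Stmn1, a protein that destabilises microtubules, averaged 0.44 ± 0.091 and Spag5, a spindle protein, 0.35 ± 0.11, both on 4 arrays. Nusap1, a microtubule bundling protein, averaged 0.17 ± 0.062, and its call was lost without mouse 1, 2, 3 or 4 (adjusted p from 0.0506 to 0.0729).

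Of 17 kinetochore and centromere genes, 8 passed below 0 and 3 above 0. Spc25, a subunit of the Ndc80 complex that grips microtubules, stood at −1.45, −1.66, −1.94, −2.00 and −1.62 in mice 1 to 5 (mean −1.73 ± 0.23; adjusted p = 2.87e-05). With features on 2 or more arrays kept, the mean of Spc25 was nearer to 0, at −1.42. Its partner Nuf2 averaged −0.94 ± 0.40 and the centromeric histone Cenpa −1.16 ± 0.37. Cenpc1, which binds that histone, averaged 0.67 ± 0.19, and Cenpq 0.38 ± 0.069. Oip5, a factor of Cenpa loading, averaged 0.401 ± 0.36, a call that was lost without mouse 1, 4 or 5 (adjusted p from 0.0578 to 0.111).

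Of 10 condensin and cohesin genes, 2 passed below 0 and 3 above 0 (20% and 30%), near the 23.9% and 25.8% of all tested. Single condensin subunits lay on both sides. Ncapg and Ncapg2 averaged −0.702 ± 0.24 and −0.61 ± 0.38, whereas Ncaph averaged 0.67 ± 0.16. Ncapd2 averaged 0.21 ± 0.11 and lost its call without mouse 1, 3 or 5 (adjusted p from 0.0503 to 0.0604). The cohesin subunit Rad21 averaged 1.12 ± 0.55. Of 5 cytokinesis genes, Racgap1 passed below 0 at −0.49 ± 0.23, and Septin9, Septin2 and Rock1 passed above 0 at 0.7996 ± 0.19, 0.48 ± 0.35 and 0.44 ± 0.096.

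**Figure D2:**
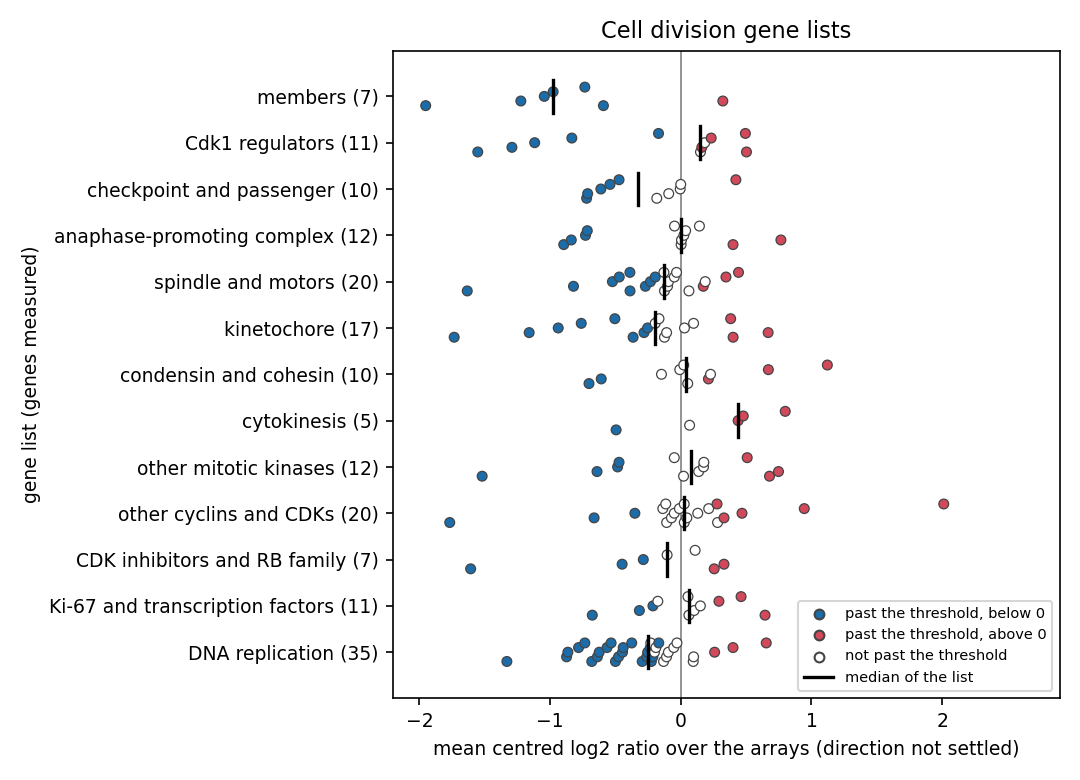
Mean centred log2 ratio of each measured gene (horizontal axis) by list (rows, with the number of genes measured); filled points passed the threshold, open points did not, and the bar is the median of the list. The 7 mitotic genes have a median of −0.98, against medians from −0.33 to 0.44 in the other lists, and single genes of those lists reach −1.77 and 2.01. Genes and lists were chosen with earlier results of these data known.

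Of 20 other cyclins and cyclin-dependent kinases, 3 passed below 0, 5 passed above 0 and 12 did not pass. These were 15% and 25%, against 23.9% and 25.8% of all tested. Ccng1, cyclin G1, a p53 target, averaged −1.77 ± 0.21, Ccnd1, the G1 cyclin, −0.66 ± 0.12 on 4 arrays, and Ccna1, the cyclin A mainly of germ cells, −0.35 ± 0.197. Cyclin I, Ccni, stood at 1.32, 1.81, 2.44, 2.59 and 1.91 in mice 1 to 5, a 4.03-fold difference at the mean of 2.01 ± 0.51 (adjusted p = 0.00019). Ccnl1, a cyclin linked to splicing, averaged 0.95 ± 0.29 and Mnat1, the assembly factor of the Cdk-activating kinase, 0.47 ± 0.17.

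Among 7 inhibitors of cyclin-dependent kinases and retinoblastoma family genes, 3 passed below 0 and 2 above 0. Cdkn1a, the p21 inhibitor, stood at −1.65, −1.42, −1.59, −1.78 and −1.604 in mice 1 to 5, on the same side as Cdk1 (mean −1.61 ± 0.13; adjusted p = 1.71e-05). Cdkn2d (p19) and Cdkn2a averaged −0.45 ± 0.25 and −0.29 ± 0.14. Cdkn2c (p18) averaged 0.26 ± 0.15 and Rb1, the retinoblastoma protein, 0.33 ± 0.24. The call of Cdkn2c was lost without mouse 1 or 3 (adjusted p = 0.0504 and 0.0602) and that of Rb1 without mouse 1, 2 or 3 (adjusted p from 0.0628 to 0.0742). Cdkn1c (p57) at −0.104 ± 0.22 and the Rb1 relative Rbl1 at 0.11 ± 0.097 did not pass (adjusted p = 0.346 and 0.136).

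**Figure D3:**
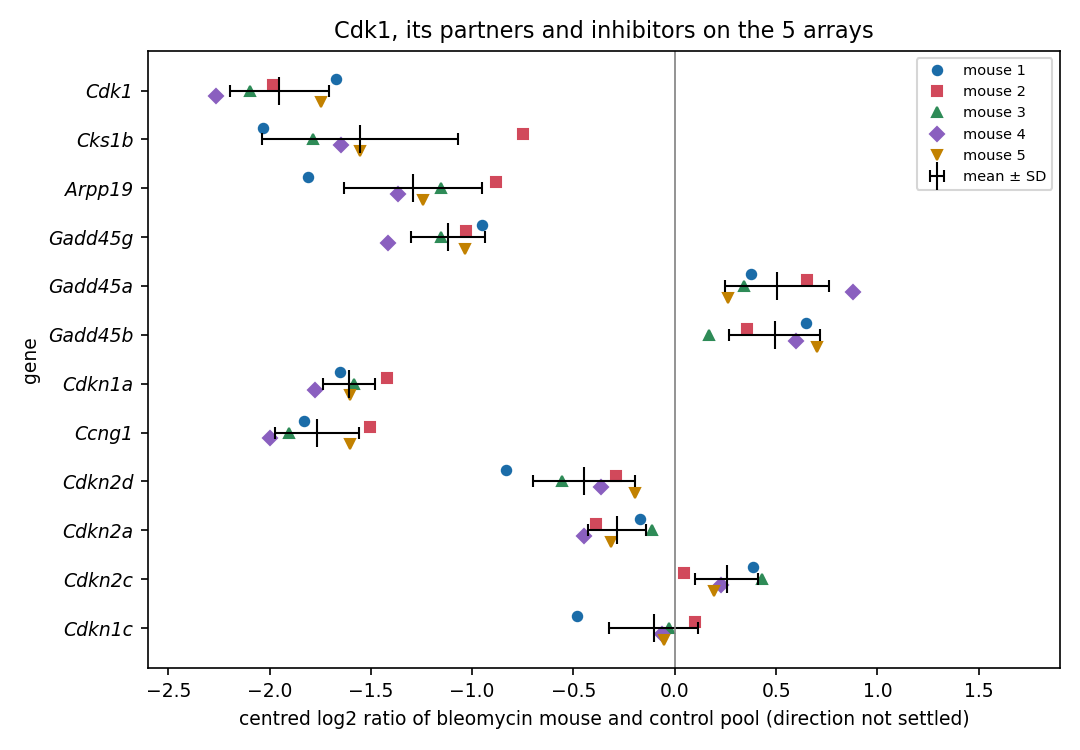
Centred log2 ratios (horizontal axis) of Cdk1, genes that act on it or near it, and kinase inhibitors (rows), with 1 symbol per mouse and the mean ± SD over 5 mice. Cdk1, Cks1b, Arpp19, Gadd45g, Cdkn1a and Ccng1 lie below −0.7 in every mouse, while Gadd45a and Gadd45b lie above 0 in every mouse.

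The proliferation antigen Ki-67, Mki67, stood at −0.82, −0.88, −1.14, −0.43 and −0.12 in mice 1 to 5, all below 0 (mean −0.68 ± 0.401; adjusted p = 0.00719). In its list with transcription factors of dividing cells, 3 of 11 passed below 0 and 3 above 0. Nfya and Nfyb, subunits of the factor that binds CCAAT boxes, lay on different sides at 0.65 ± 0.15 and −0.32 ± 0.302. The call of Nfyb was lost without mouse 1, 2, 3 or 5 (adjusted p from 0.0537 to 0.141). Tfdp1 and E2f1, partners in the E2F factor, averaged 0.46 ± 0.18 and 0.29 ± 0.08, and the repressor E2f6 averaged −0.21 ± 0.1001, a call lost without mouse 3 or 4 (adjusted p = 0.0509 and 0.0548).

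DNA replication genes lay more often below than above 0, with 22 of 35 passing below 0 and 3 above 0 and a median of −0.25. The shares were 62.9% and 8.57%, against 23.9% and 25.8% of all tested. Gins2, a subunit of the replicative helicase, averaged −1.33 ± 0.61, and the helicase subunit Mcm3 and the initiation factor Mcm10 −0.87 ± 0.14 and −0.86 ± 0.24. With features on 3 or more arrays kept, the mean of Gins2 was nearer to 0, at −1.02. The polymerase alpha subunit Pola2 averaged 0.65 ± 0.18. Rpa2, which binds single-stranded DNA, averaged 0.40 ± 0.33 and lost its call without mouse 4 or 5 (adjusted p = 0.0818 and 0.0887), and Rfc2, of the clamp loader, averaged 0.26 ± 0.14 and lost it without mouse 3 (adjusted p = 0.0506). Past 2-fold, 1 replication gene lay below 0, against 3 of the 7 mitotic genes, and the difference between the lists was not tested.

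Of the measured division genes without the 10, promoters were matched for 39 of the 46 that passed below 0, 26 of the 32 above 0 and 46 of the 56 that did not pass. Both CCAAT and TTTGAA were found in 33.3%, 15.4% and 21.7% of these, against 6.95% of all promoter windows. The division genes were counted with a single promoter per symbol, whereas all windows were counted without that step, so the units differ. The difference between the sides was not tested.

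By the root mean square difference over the 5 arrays, the genes most like Cdk1 among 7431 with values on all arrays were Igf1 (0.13), Spc25 (0.23), Sting1 (0.24), Clec4n (0.24) and Sh3gl2 (0.27). Those nearest to the mean of the 6 mitotic genes with values on all arrays were Rpl38 (0.086), Anapc15 (0.105), Basp1 (0.105), Tnc (0.106) and Chpf2 (0.107). The measure compares size and pattern together and all arrays share the pool.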

How the data were processed

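Per the labels, each array held a bleomycin mouse in channel 1 and the control pool in channel 2. The authors deposited 1 log ratio per feature and array, taken here as log2. The sources used here state no scanner, dyes, normalization or log base. The deposited medians were 0.011 to 0.026, so the ratios were already centred; array medians were subtracted once more. Of 17280 features, 10702 with values on at least 4 arrays were kept. Symbols came from the platform annotation and were updated by gene identifier for 14445 of 14723 features with a RefSeq table of GRCm38.p6, of which no coordinates were used. Features of 1 symbol were averaged, which gave 10081 rows. Arrays held 11350 to 12083 values each. Precision is limited by the number of arrays, since no intensities were used.

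Means were tested with limma 3.58.1 (R 4.3.3) for a departure from 0 (intercept only, empirical Bayes, two-sided, Benjamini-Hochberg over all rows, threshold 0.05). The procedure was run on simulated data with independent noise and few changed rows. That simulation held no shared pool and no dye bias, so it cannot speak to errors from these. The labels give separate mice. Without a dye swap in the labels, dye bias of a gene does not cancel. The members and lists were chosen with earlier results of these data known. Named genes are all members and kinase inhibitors, the 3 genes farthest from 0 on each side of each division list among those past the threshold with all arrays on 1 side, and the nearest genes by root mean square difference. The alternatives covered centring, the minimum number of arrays, feature choice, moderation, the pool's spread, a 1.2-fold minimum, array weights and leaving out each mouse.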

Additional observations from a re-analysis of the deposited data

Results flagged for a closer look

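Cdkn1c, the p57 inhibitor of cyclin-dependent kinases, stood apart in mouse 1 at −0.48, while its next lowest value was −0.062 in mouse 4. The gap took 72.2% of the range over the 5 mice. It was the 1 gene so marked among 73 genes examined in this way, and chance marks about 1 in 20 such groups.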

How the results depend on the processing

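The 7 genes kept their side of 0 in every alternative that gave a value, and all 7 passed without each mouse in turn (6 below 0 and 1 above 0 each time). Nearest to the threshold were Plk1 without mouse 3 and Aurka without mouse 2 (limma against 0, adjusted p = 0.0491 and 0.042). Aurka had no value in mouse 5, so its fit without mouse 5 used the same 4 values, and its other such fits used 3. As all measured arrays of each gene lay on 1 side of 0, leaving out a mouse or changing the test could not change that side. The centring alternatives shifted the means too little to change it, with Plk1, the nearest to 0, at 0.34 and 0.30. With features on all 5 arrays Aurka has no value. With the pool counted as 1 control mouse, 3 passed below 0 and 0 above 0. Above 0 the count was also 0 with the plain one-sample test and with the 1.2-fold minimum. Of the 134 other division genes, 7 passed below 0 and 1 above 0 with the pool so counted, and 24 and 11 with the 1.2-fold minimum. Leaving out a mouse gave 39 to 43 below 0 and 28 to 29 above 0. Over all rows, 213 and 300 passed with the pool so counted, and 811 and 1036 with the 1.2-fold minimum. The next counts cover the 64 genes past the threshold outside the 7 that were named by rule from the division and DNA replication lists. Genes named only as nearest by root mean square difference, or chosen after their values were seen, are not among them. Of the 64, 9 passed with the pool so counted, 35 with the 1.2-fold minimum, 55 with the plain one-sample test and 57 to 61 without a mouse. By construction, the pool setting widens the error and the 1.2-fold minimum requires a larger difference. For the plain one-sample test and for leaving out a mouse, the cause was not tested. Keeping features on 2 or more arrays was chosen after seeing the data and moved no count of the 7. It brought the means of Spc25 (−1.42), Anapc15 (−0.71), Ncapg (−0.58) and Mcm10 (−0.77) nearer to 0. The mean of Gins2 was nearer to 0 with features on 3 or more arrays (−1.02). No paired analysis was possible because the series has 1 group.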

Other observations

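Some genes of different steps of division are listed here by the mouse in which they lay nearest to 0. With more genes than the 5 mice, some had to share a mouse, so the sharing itself shows nothing. The grouping was chosen after the values were seen and was not tested. Other division genes are left out, such as Mcm3, which was nearest to 0 in mouse 3 at −0.75. Aurkb, Cks1b, Gins2, Arpp19 and Tpx2 were nearest to 0 in mouse 2, at −0.28, −0.75, −0.31, −0.88 and −0.98. Ccna2, Trip13, Incenp, Mki67, Cenpa and Bub1b were nearest to 0 in mouse 5, at −0.33, −0.21, −0.22, −0.12, −0.595 and −0.73. Cdk1, Spc25 and Melk were nearest to 0 in mouse 1, at −1.67, −1.45 and −1.19, and farthest from it in mouse 4, at −2.27, −2.00 and −1.73. The macrophage markers had medians of −0.59 in mouse 2 and −0.62 in mouse 3, but C1qc had no value in mouse 2 and Mrc1 none in mouse 1. These medians therefore cover different genes and do not set mouse 2 apart. The part of these cells in the grouping was not tested. Mouse 2 also had the narrowest spread of ratios over all features (SD 0.49) and mouse 1 the widest (SD 0.59), with array quality weights of 1.47 and 0.596, and the part of this array-wide difference was not tested.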
